A study of Homo sapiens with 7 samples.

Results

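Poly(A) polymerases (PAPs) PAPα and PAPγ were compared directly here, by setting the 3′READS library of HEK293 cells after siRNA knockdown (KD) of PAPα (siPAPα) against the library after KD of PAPγ (siPAPγ), and not through the control. The comparison takes 2 of the 7 libraries of the series. HEK293 is an established human embryonic kidney cell line. Cells of the siPAPα library received an siRNA against PAPOLA, the gene of PAPα, and cells of the siPAPγ library an siRNA against PAPOLG, the gene of PAPγ. siCtrl cells, given a control siRNA, and siStar-PAP cells, given an siRNA against TUT1, the gene of Star-PAP, stand in the same table and are shown beside them as levels. The double KD (siPAPα+γ) stands in another table and received both siRNAs. All come from the same cell line, with 1 siRNA for each target. Each condition had 1 library, so no test of the conditions exists, a call is a fold change or a share change past a fixed size, and every 95% interval covers counting error only. The table listed 51882 sense poly(A) sites (PASs) in 15468 genes, after upstream antisense sites were left out. siPAPα held 16191098 reads at these PASs and siPAPγ 8674435, so siPAPα was 1.87 times as deep, and levels are given as RPM, reads per 1000000 sense PAS reads. A read marks 1 cleaved and polyadenylated 3′ end, so levels need no division by transcript length. RPM is a share of the library: fewer cells of a kind and less RNA per cell cannot be told apart in it.

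PAPα and PAPγ are the canonical nuclear poly(A) polymerases. Both work with the cleavage and polyadenylation specificity factor, which reads the AAUAAA signal a short way upstream of the cleavage site, and both add the poly(A) tail to most mRNAs. PAPγ is encoded by its own gene and resembles PAPα in its catalytic part, and Star-PAP is a more distant nuclear enzyme that also uridylates U6 small nuclear RNA. Most human genes have several PASs. Those in the last exon give mRNAs that differ in the length of the 3′UTR (3′UTR-APA), and those in introns or upstream exons give shortened transcripts (UR-APA).

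PAPOLA ends were about 10 times as rare in siPAPα as in siPAPγ. PAPOLA had 12 reads in siPAPα, 66 in siPAPγ, 71 in siCtrl, 44 in siStar-PAP and 8 in the double KD. Scaled to depth, siPAPα stood at 9.74% of siPAPγ, a difference of 10.3-fold with a counting interval of 5.50 to 20.9. At the 3 last-exon PASs of PAPOLA siPAPγ had 4, 13 and 12 reads and siPAPα had 0 at each, and 8 of the 12 reads in siPAPα lay at 1 PAS listed as intronic, where siPAPγ had 0. PAPOLG had 36 reads in siPAPα, 15 in siPAPγ, 5 in siCtrl, 28 in siStar-PAP and 6 in the double KD. The ratio of siPAPα to siPAPγ was 1.29 (0.687 to 2.53), and the level in siPAPγ, 1.73 RPM (0.968 to 2.85), was not below that in siCtrl, 0.621 RPM (0.201 to 1.45). These reads are too few to check the label of the siPAPγ library, so siPAPγ below means the library so labelled. The paper checked each KD by immunoblot and described it as specific, at the level of protein, which these reads do not measure. TUT1 had 228 reads in siPAPα, 83 in siPAPγ, 83 in siCtrl and 2 in siStar-PAP, and was 1.47-fold (1.14 to 1.92) higher in siPAPα. Of 8 genes that mark HEK293 cells, 6 had more than 50 reads in the 2 libraries together, and their summed level was 346 RPM in siPAPα, 204 in siPAPγ, 183 in siCtrl and 165 in siStar-PAP. INA, a neurofilament gene, gave most of this gap, with 3838 reads in siPAPα and 885 in siPAPγ. Of 8 markers of hepatocytes, blood cells, endothelium and fibroblasts, 6 had no listed PAS and so no count. The summed level of these markers was 0.926 RPM in siPAPα and 1.27 in siPAPγ.

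The clearest contrasts between the libraries were genes whose main PAS switched. The 30 bases before the listed position of PASs with the largest share changes among genes that had 200 reads or more in each of both libraries, and of the single PAS of SENP3 described further on, are printed here because the switch is between these sites. They were read from GRCh37, the genome of hg19, 5′ to 3′ on the strand of the transcript. Capitals mark the signal hexamer nearest the consensus (AATAAA, or else ATTAAA or a variant listed further on), and a line without capitals holds none in these bases.
PFDN1 proximal PAS, chr5:139625223-139625252, minus strand: ccagccagaccAATAAAaagcgtctgtccc
PFDN1 distal PAS, chr5:139624653-139624682, minus strand: aggacAATAAAtattcaaaatgcatcccta
HADH proximal PAS, chr4:108955618-108955647, plus strand: acagtttAATAAAtgtgcattttgattgta
HADH distal PAS, chr4:108956297-108956326, plus strand: ataaaAGTAAAagttggtaatttaggcaga
WDR4 proximal PAS, chr21:44269337-44269366, minus strand: tagcagcaaccgAATATAccaggcaaaact
WDR4 distal PAS, chr21:44267770-44267799, minus strand: atctgagAATAAActtttatggatgcagcc
RRAGD proximal PAS, chr6:90077590-90077619, minus strand: tataAATAAAgtaagcactttgaagcaaaa
RRAGD distal PAS, chr6:90074724-90074753, minus strand: tcttggttATTAAAgtatggtatgtattca
HNRNPA0 first last-exon PAS, chr5:137088307-137088336, minus strand: tatttttAATAAAtcattgtgtttgaccgt
NSD1 intronic PAS, chr5:176564423-176564452, plus strand: aaagttacagagggagaatgtgggtgtgtc
VRK3 intronic PAS, chr19:50492172-50492201, minus strand: tcccccactgaggctgggtttggtacccat
SENP3 PAS, chr17:7475257-7475286, plus strand: ggtcAATAAAggatcctttgttgatacgta
The GENCODE annotation placed these sites in the UTR of the named gene, other than the intronic PASs of NSD1 and VRK3 and the distal PAS of WDR4, which the deposited table lists as a last-exon site and GENCODE places in an intron of WDR4.

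In 4 genes with a proximal and a distal PAS in the last exon, siPAPα had more of the distal and siPAPγ more of the proximal site. For PFDN1, a subunit of the prefoldin chaperone, the distal PAS held 54.9% (49.0 to 60.7) of 295 reads in siPAPα and 9.97% (6.83 to 13.9) of 301 reads in siPAPγ. The same share was 27.5% in siCtrl, 18.4% in siStar-PAP and 27.3% in the double KD, so siPAPα was high and siPAPγ low among the 5 libraries. HADH, a mitochondrial enzyme of fatty acid oxidation, had 71.1% of its reads at the distal PAS in siPAPα (67.8 to 74.2) and 28.4% in siPAPγ (23.4 to 33.8), against 54.5% in siCtrl. For WDR4, a subunit of a tRNA methyltransferase, the distal share was 60.9% (56.5 to 65.3) in siPAPα, 18.3% (15.6 to 21.2) in siPAPγ, 49.7% in siCtrl, 35.8% in siStar-PAP and 22.9% in the double KD. The double KD was nearer to siPAPγ there. RRAGD, a Rag GTPase of amino acid signaling to mTORC1, had a distal share of 86.6% (84.7 to 88.4) in siPAPα and 45.1% (39.9 to 50.4) in siPAPγ. Here siCtrl (83.4%) and siStar-PAP (78.6%) were near siPAPα, and siPAPγ was the lowest of the 5 libraries. HNRNPA0, a heterogeneous nuclear ribonucleoprotein, differed the other way: its first last-exon PAS took 71.7% (70.1 to 73.3) of 3014 reads in siPAPα and 28.8% (26.7 to 31.1) of 1692 reads in siPAPγ, with 32.3% in siCtrl and 22.4% in siStar-PAP. The 8 largest gains of siPAPα in such genes included the last PASs of TPCN2, an endolysosomal cation channel (52.1% against 10.9%), of CBX6, a Polycomb group protein (89.4% against 50.6%), and of ARF3, a small GTPase of the Golgi (88.1% against 51.1%). Of these 8 PASs, 7 were the last PAS of the last exon.

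The largest gains of siPAPγ included 2 intronic PASs. NSD1, a histone lysine methyltransferase, had 79.4% (77.1 to 81.7) of 1216 reads at its intronic PAS in siPAPγ and 34.6% (31.1 to 38.1) of 732 reads in siPAPα. siCtrl (54.6%), siStar-PAP (64.4%) and the double KD (53.7%) lay between them. VRK3, a protein of the vaccinia-related kinase family, had 75.6% (73.1 to 77.9) at its intronic PAS in siPAPγ and 33.6% (30.7 to 36.5) in siPAPα, with 59.1% in siCtrl, 76.8% in siStar-PAP and 26.2% in the double KD. Both libraries with PAPα depleted were thus low, and the 3 others high. MBTPS2, the intramembrane protease that releases SREBP transcription factors, had 69.8% at a middle last-exon PAS in siPAPγ and 30.4% in siPAPα, with 70.5% in siCtrl, 71.1% in siStar-PAP and 35.1% in the double KD. As for VRK3, the libraries with PAPα depleted were low and the 3 others high. IREB2, an iron-regulated RNA-binding protein, had 73.4% at its first last-exon PAS in siPAPγ and 34.5% in siPAPα, against 84.2% in siCtrl and 55.6% in the double KD.

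Share changes were common. Among 5829 genes with at least 2 sense PASs and at least 50 reads in each library, 2406 (41.3%) had a PAS whose share differed by 10 percentage points or more, 778 had one of 20 points or more and 7 one of 50 points or more. The most-read PAS was not the same in 614 genes (10.5%). Over 24599 PASs, 2223 (9.04%) had a higher share in siPAPα and 2173 (8.83%) a higher share in siPAPγ. With Fisher's exact test on the reads and Benjamini-Hochberg adjustment required as well, which compares these 2 libraries and not the conditions, 3578 of the 4396 PASs remained in the count, 1789 in each direction. By position, siPAPα gained more often at last PASs (12.0% of 5129 against 6.47% gained by siPAPγ), and siPAPγ more often at first last-exon PASs (11.2% of 5120 against 7.19%), introns (8.71% of 5375 against 5.25%) and upstream exons (10.1% of 288 against 4.17%). Middle last-exon PASs were near even, with 10.4% and 9.16%. Single last-exon PASs, whose genes have their other PASs upstream of the last exon, gained in siPAPα in 16.0% of 662 and in siPAPγ in 5.44%. siCtrl was nearer to siPAPγ at 1294 (68.9%) of the 1877 PASs that gained in siPAPα and had enough reads in siCtrl. It was nearer to siPAPγ at 969 (52.9%) of 1831 PASs that gained in siPAPγ. For siStar-PAP these figures were 69.3% and 51.6%. The same figure over all PASs with a share was not counted, so these percentages are not read as traits of the PASs called.

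Distal PASs of the 3′UTR were used relatively more in siPAPα. Relative expression difference (RED) is log2 of distal over proximal reads in siPAPα minus the same in siPAPγ, for the 2 most-read last-exon PASs of a gene, with 1 read added to each count. Of 6000 genes with at least 20 reads for the pair in each library, 1555 (25.9%) had a RED above 1, toward distal in siPAPα, and 1018 (17.0%) had a RED below −1, toward distal in siPAPγ. The median RED was 0.16 (0.12 to 0.20), and 55.4% of genes were above 0. Intervals of medians are order-statistic intervals over genes or PASs, which are not replicates. On average the distal PAS took 51.1% of the pair in siPAPα, 49.4% in siPAPγ, 49.0% in siCtrl and 49.5% in siStar-PAP. The means of siCtrl and siStar-PAP are over 5468 and 5422 of the 6000 pairs, those with enough reads there. The median RED was 0.04 (−0.03 to 0.15) for pairs within 100 nt and −0.01 (−0.10 to 0.07) for pairs 100 to 300 nt apart. It was 0.11 (0.05 to 0.19) for 300 to 1000 nt, 0.33 (0.24 to 0.39) for 1000 to 3000 nt and 0.23 (0.10 to 0.33) for longer distances. At 1000 to 3000 nt, 30.9% of 1728 pairs were toward distal in siPAPα and 14.8% toward distal in siPAPγ.

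Base composition moved with this difference. Where the 100 bases before the distal PAS held fewer G and C than those before the proximal PAS, by over 5 percentage points, the median RED was 0.40 (0.35 to 0.47; 2025 genes). It was 0.10 (0.05 to 0.17; 2736 genes) where both lay within 5 points, with 24.3% of genes above 1 and 18.6% below −1. It turned to −0.12 (−0.19 to −0.05; 1239 genes) where the distal PAS was richer in G and C by over 5 points. The part of base composition in the RED was not tested further. Requiring Fisher's exact test with adjustment as well left 996 genes toward distal in siPAPα and 557 toward distal in siPAPγ.

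**Figure D1:**
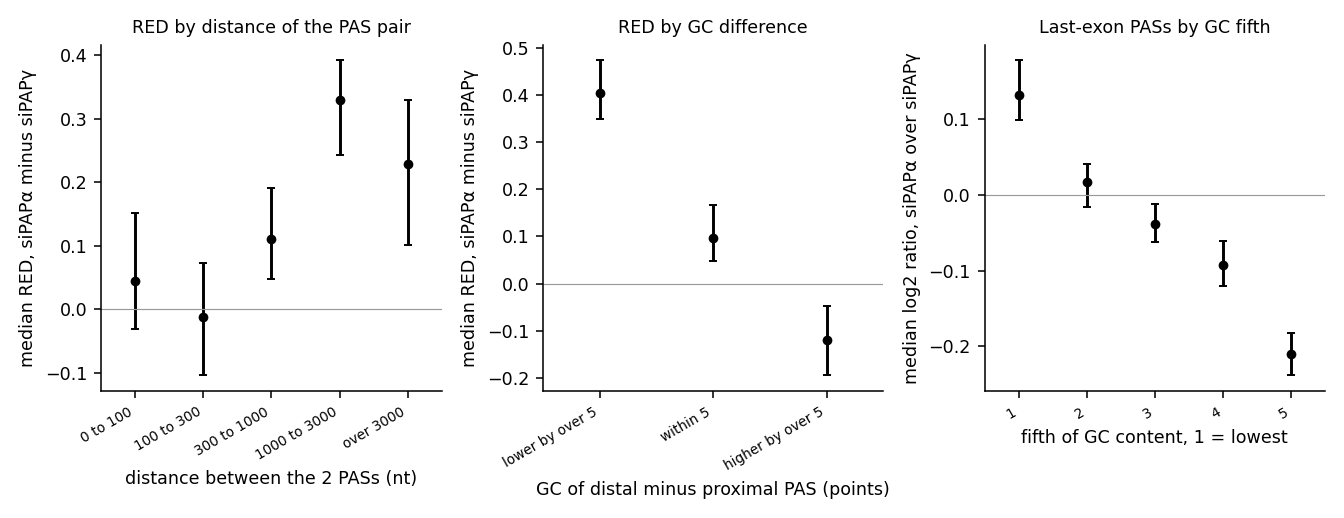
Medians of RED (siPAPα minus siPAPγ, log2) by distance between the 2 PASs in nt (left) and by GC content of the distal minus the proximal PAS in percentage points (middle), and medians of the log2 ratio of siPAPα to siPAPγ of last-exon PASs in 5 bins of GC content (right), each point a median with its 95% order-statistic interval. RED is highest at 1000 to 3000 nt (0.33) and falls from 0.40 to −0.12 as the distal PAS becomes richer in G and C, and the log2 ratio falls from 0.13 in the lowest to −0.21 in the highest GC bin.

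The largest RED values, among pairs with at least 100 reads in each library, rested on sites used little in either library. BAHCC1 had 0 proximal and 617 distal reads in siPAPα and 11 and 119 in siPAPγ, so the distal share of the pair was 100% against 91.5%. C21orf91 had 0 and 643 reads against 20 and 230, THRA, a thyroid hormone receptor, 0 and 157 against 21 and 120, and TMUB2 0 and 385 against 14 and 216. In these genes siPAPα lacked a minor proximal site that siPAPγ had. TYSND1, a peroxisomal protease, had 78 distal reads of the pair in siPAPα (14.8%) and 0 in siPAPγ. In the other direction ODZ3 had 14 proximal reads in siPAPα and 0 in siPAPγ, and GCH1, the first enzyme of tetrahydrobiopterin synthesis, 19 and 0. POLR1E, a subunit of RNA polymerase I, had 1 distal read in siPAPα and 11 in siPAPγ, TMEM65 0 and 39, and FAM60A 0 and 12. GENCODE has no gene on the strand at this distal site of POLR1E and assigns that of FAM60A to an exon of another gene. With a count of 0 the size of these values depends on the read added, and a count of 0 allows up to 3 reads.

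PASs upstream of the last exon were used relatively more in siPAPγ. They held 3.65% (3.64 to 3.66) of sense reads in siPAPα, 4.03% (4.02 to 4.05) in siPAPγ, 4.83% in siCtrl and 4.94% in siStar-PAP. Both siPAPα and siPAPγ lay below siCtrl and siStar-PAP, siPAPα lowest. Of 2629 genes with a PAS of each kind and at least 50 reads in each library, 767 (29.2%) had an upstream-region share higher in siPAPγ by 5 percentage points or more and 462 (17.6%) one higher in siPAPα. The mean share was 18.5% in siPAPα, 20.4% in siPAPγ, 23.7% in siCtrl and 24.8% in siStar-PAP, the last 2 over the 2251 and 2266 of these genes with enough reads there. The median difference was −0.617 points (−0.963 to −0.304), siPAPα minus siPAPγ. With Fisher's exact test and adjustment required as well, 525 genes were higher in siPAPγ and 249 in siPAPα. NSD1 had 81.0% of its reads at upstream-region PASs in siPAPγ and 34.8% in siPAPα. TFDP1, the dimerization partner of E2F factors, had 64.5% in siPAPγ, 26% in siPAPα, 22.8% in siCtrl and 52.6% in siStar-PAP. GART, an enzyme of purine synthesis, had 44.5% in siPAPγ, 11.6% in siPAPα, 44.9% in siCtrl and 20.9% in siStar-PAP. siCtrl was thus near siPAPα for TFDP1 and near siPAPγ for GART. Toward siPAPα, WDR26, a subunit of the CTLH ubiquitin ligase, had 43.6% in siPAPα and 13.5% in siPAPγ, with 14.4% in siCtrl and 11.0% in siStar-PAP. SEC14L1 had 57.5% in siPAPα and 28.0% in siPAPγ.

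Levels of single PASs showed the same order by position. Of 14522 PASs with more than 50 reads in the 2 libraries together, 1283 (8.83%) were over 2-fold higher in siPAPα and 1448 (9.97%) over 2-fold higher in siPAPγ. Among 1083 intronic PASs 12.2% were higher in siPAPα and 18.7% in siPAPγ, and the median log2 ratio of siPAPα to siPAPγ was −0.24 (−0.32 to −0.15). The median was −0.29 (−0.47 to −0.10) for PASs of upstream exons and −0.14 (−0.17 to −0.11) for 3199 first PASs of the last exon. It was −0.01 (−0.04 to 0.02) for middle PASs, 0.03 (−0.01 to 0.06) for last PASs and −0.04 (−0.06 to −0.02) for single last-exon PASs. Single PASs, which have no alternative in the last exon, were called least, 5.07% higher in siPAPα and 5.98% in siPAPγ. These levels depend on the scaling of the libraries, given beside the gene counts further on, and the order of these medians does not.

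**Figure D2:**
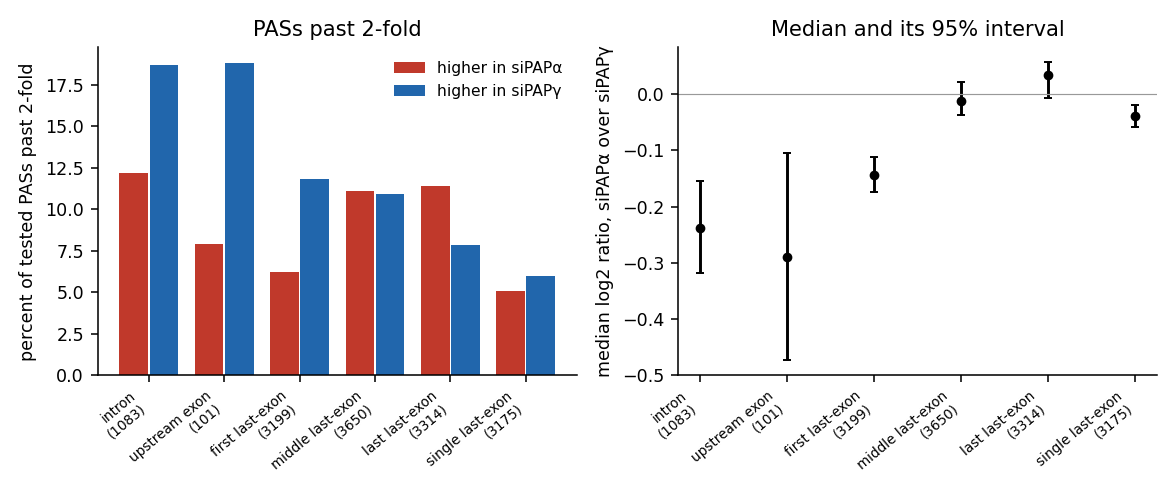
Percent of tested PASs over 2-fold higher in siPAPα (red) or siPAPγ (blue) and the median log2 ratio of siPAPα to siPAPγ with its 95% order-statistic interval, by position of the PAS, with the number tested in parentheses. Intronic PASs are higher in siPAPγ (18.7%) more often than in siPAPα (12.2%), and last PASs of the last exon higher in siPAPα (11.4%) more often than in siPAPγ (7.85%).

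Last-exon PASs that were higher in siPAPγ carried the canonical signal less often than those higher in siPAPα. Signals were searched on the transcribed strand 1 to 40 nt upstream of the PAS as AATAAA, and where it was lacking as ATTAAA, and where that was lacking as a variant, 1 class per PAS. Variants searched were AGTAAA as well as TATAAA as well as CATAAA as well as GATAAA, then AATATA as well as AATACA as well as AATAGA, and lastly ACTAAA as well as AAGAAA as well as AATGAA. The AATAAA signal stood in 59.2% of 13338 tested last-exon PASs, in 61.1% (58.2 to 63.9) of the 1143 higher in siPAPα and in 48.0% (45.1 to 50.8) of the 1226 higher in siPAPγ. No signal was found in 8.60%, 7.52% and 16.0% of these sets. The median log2 ratio was −0.01 for PASs with AATAAA, −0.04 with ATTAAA, −0.10 with a variant and −0.18 (−0.24 to −0.12) with none. PASs without a signal were over 2-fold higher in siPAPγ in 17.1% of cases and in siPAPα in 7.50%. Counted on shares, which do not depend on scaling, AATAAA stood in 56.7% (54.4 to 58.9) of 1921 last-exon PASs that gained in siPAPα and in 45.6% (43.2 to 48.0) of 1670 that gained in siPAPγ, beside 44.3% of all 18773. No signal was found in 9.89%, 15.6% and 17.8% of these sets. The 18773 were not filtered on the reads of each PAS, unlike the 13338 tested. Departures from all PASs thus cannot be compared between shares and levels. On both, AATAAA was more frequent on the siPAPα side and a lack of signal on the siPAPγ side.

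Composition around the sites differed too. The 100 bases upstream held a median of 35% G and C over all tested last-exon PASs, 32% in those higher in siPAPα and 37% in those higher in siPAPγ. In 5 bins of rising GC content, of 2442 to 3183 PASs each, the median log2 ratio was 0.13 (0.10 to 0.18), 0.02, −0.04, −0.09 and −0.21 (−0.24 to −0.18). Across 13334 PASs, which share 2 libraries and are not replicates, Spearman's rho was −0.16 and Pearson's r −0.16. Over the same bins other library pairs had smaller and larger gaps: the median of siCtrl over siPAPα went from −0.22 in the lowest to 0.32 in the highest bin, and that of siCtrl over siPAPγ from −0.06 to 0.10. In the lowest GC bin AATAAA stood in 63.1% of PASs higher in siPAPα and 53.2% of those higher in siPAPγ, and in the highest in 55.8% and 43.8%, and the gap in signals was present in all 5 bins. GGGG, searched 41 to 100 nt upstream on the transcribed strand, stood in 14.0% of all tested last-exon PASs, 10.4% of those higher in siPAPα and 18.4% of those higher in siPAPγ. TGTA in the same window stood in 39.7%, 44% and 35.9%. Downstream, TTTT within 1 to 40 nt stood in 47.2%, 50.7% and 43.4% and GTGT in 29.9%, 27.4% and 30.6%. Counted on shares, GGGG stood in 10.6% of all last-exon PASs, 9.27% of those that gained in siPAPα and 10.7% in siPAPγ. TGTA stood in 39.6%, 45.3% and 38.6% of these sets, TTTT in 49.7%, 50.3% and 50.2%, and GTGT in 25.9%, 26.4% and 26.6%. The gaps in TTTT and GTGT were thus not seen on shares, and that in GGGG was smaller. A match of these letters is a description and not a site of binding. Among 240 upstream antisense PASs with more than 50 reads in the 2 libraries, outside these totals, 10.4% were over 2-fold higher in siPAPα and 15.8% in siPAPγ.

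Gene totals differed less than in any other pair of libraries of the table. Of 10649 genes with more than 50 reads in the 2 libraries together, 9327 (87.6%) were within 2-fold. 552 genes (5.18%) were over 2-fold higher in siPAPα and 770 (7.23%) over 2-fold higher in siPAPγ, 12.4% together. In the other pairs, which share libraries with this one and each other, the percent past 2-fold was 18.7 for siStar-PAP and siPAPγ, 22.5 for siCtrl and siPAPγ, 23.5 for siStar-PAP and siPAPα, 28.5 for siCtrl and siStar-PAP and 29.1 for siCtrl and siPAPα. 75 genes were over 4-fold higher in siPAPα and 62 in siPAPγ, and 9 and 7 were over 8-fold. The counting interval of the fold lay wholly past 2 for 159 genes higher in siPAPα and 283 higher in siPAPγ. The median log2 ratio was −0.08 (−0.09 to −0.06) and the quartiles were −0.48 and 0.30. Which direction held more calls depended on scaling: TMM factors gave 659 and 630, DESeq2 size factors 656 and 634, and the PASS read totals of the study 742 and 549, with a median of 0.06, a shift of 0.14. Calls were most frequent among weakly expressed genes, from 25.5% in the lowest of 5 equal bins of expression to 6.11% in the highest. Of 251 noncoding genes 16.3% were called, and of 10398 mRNA genes 12.3%. For 29 called genes at least 50% of the reads lay at PASs listed for more than 1 gene.

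**Figure D3:**
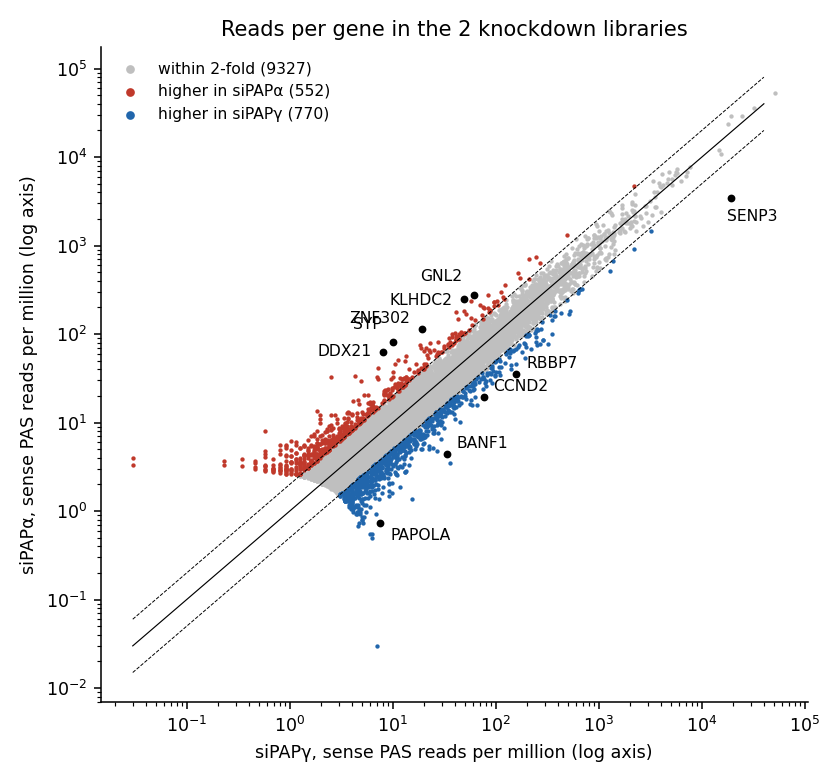
RPM of each of 10649 genes in siPAPγ (x) and siPAPα (y), both on log axes, with genes over 2-fold higher in siPAPα in red (552), in siPAPγ in blue (770) and others in grey, dashed lines at 2-fold, and 3 genes with 0 reads in 1 library drawn at 0.03. Most genes lie between the dashed lines (87.6%), and SENP3 stands apart among highly expressed genes.

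The other 2 libraries of the table did not lie alike for both directions. Of the 770 genes higher in siPAPγ, siCtrl was nearer to siPAPγ in 559 (72.6%), and of the 552 higher in siPAPα it was nearer to siPAPγ in 231 (41.8%), beside 57.0% of all tested genes. siStar-PAP was nearer to siPAPγ in 410 (53.2%) and 354 (64.1%), beside 53%. The double KD, compared over PASs listed in both tables, was nearer to siPAPα in 414 of 741 genes higher in siPAPγ (55.9%) and in 294 of 523 higher in siPAPα (56.2%), beside 51.4% of all 10296 with such PASs. Its table was made separately, so these last levels are set across tables.

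The 12 genes with the counting interval farthest toward siPAPα did not share 1 pattern over the other libraries. SYP, which encodes the synaptic vesicle protein synaptophysin, had 80.4 RPM in siPAPα, 10.1 in siPAPγ, 8.94 in siCtrl, 4.14 in siStar-PAP and 104 in the double KD, and the ratio of siPAPα to siPAPγ was 7.93 (6.38 to 9.95). Both libraries with PAPα depleted were high. For MMP24, a membrane-type metalloproteinase, and KCNC1, a voltage-gated potassium channel, the double KD was also the highest and siPAPα next. MMP24 had 13.6 RPM in siPAPα, 1.84 in siPAPγ, 0.993 in siCtrl, 0 in siStar-PAP and 21.4 in the double KD. KCNC1 had 12.2, 1.96, 5.96, 1.35 and 22.3 RPM. KLHDC2, the substrate receptor of a cullin-RING ubiquitin ligase, had 250 RPM in siPAPα, 49.5 in siPAPγ, 43.3 in siCtrl, 40.3 in siStar-PAP and 28.4 in the double KD, so only the siPAPα library was high among these 5. Its ratio was 5.05 (4.57 to 5.59). DDX21, a nucleolar RNA helicase, had 63.0 RPM in siPAPα, 8.07 in siPAPγ, 20.5 in siCtrl, 23.4 in siStar-PAP and 12.0 in the double KD, a ratio of 7.81 (6.12 to 10.1). GNL2, a nucleolar GTPase of ribosome assembly, had 276 RPM in siPAPα, 61.6 in siPAPγ, 245 in siCtrl, 58.4 in siStar-PAP and 108 in the double KD. Here siCtrl was near siPAPα, and siPAPγ and siStar-PAP were low.

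ZNF302, a zinc finger protein, had 115 RPM in siPAPα, 19.3 in siPAPγ, 78.9 in siCtrl and 25 in siStar-PAP. UBE2E1, a ubiquitin-conjugating enzyme, had 175 RPM in siPAPα, 41.2 in siPAPγ, 104 in siCtrl and 97.3 in siStar-PAP, a ratio of 4.26 (3.82 to 4.77). For both genes siPAPα was the highest and siPAPγ the lowest of the 5 libraries. PKIB, an inhibitor of protein kinase A, had 29.3 RPM in siPAPα, 4.96 in siPAPγ, 24.7 in siCtrl and 40 in siStar-PAP. SLC36A4, an amino acid transporter, had 41.1, 7.26, 23 and 21.1 RPM, and most of its reads in siPAPα (459 of 666) lay at an intronic PAS. KIAA0408 and C6orf174 are listed with the same PASs, which hold 100% and 94.6% of their reads, so they are 1 locus here, with 32.4 and 33.4 RPM in siPAPα against 2.54 and 4.27 in siPAPγ.

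Among genes higher in siPAPγ, SENP3 weighed most. SENP3, a nucleolar SUMO protease, is listed with 1 PAS, which overlaps the readthrough gene SENP3-EIF4A1 and is printed above. It had 55997 reads in siPAPα, 167741 in siPAPγ, 261455 in siCtrl and 174704 in siStar-PAP, or 0.346%, 1.93%, 3.24% and 1.57% of all sense reads. siPAPγ was 5.59-fold (5.54 to 5.65) above siPAPα, and the double KD, at 5500 RPM, was near siPAPα (3459 RPM). EIF4A1, the next gene downstream, a translation initiation helicase, had 341 RPM in siPAPα, 262 in siPAPγ, 203 in siCtrl and 71.0 in siStar-PAP. Its distal PAS held 97.2% of its reads in siPAPα and 95.1% in siPAPγ.

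**Figure D4:**
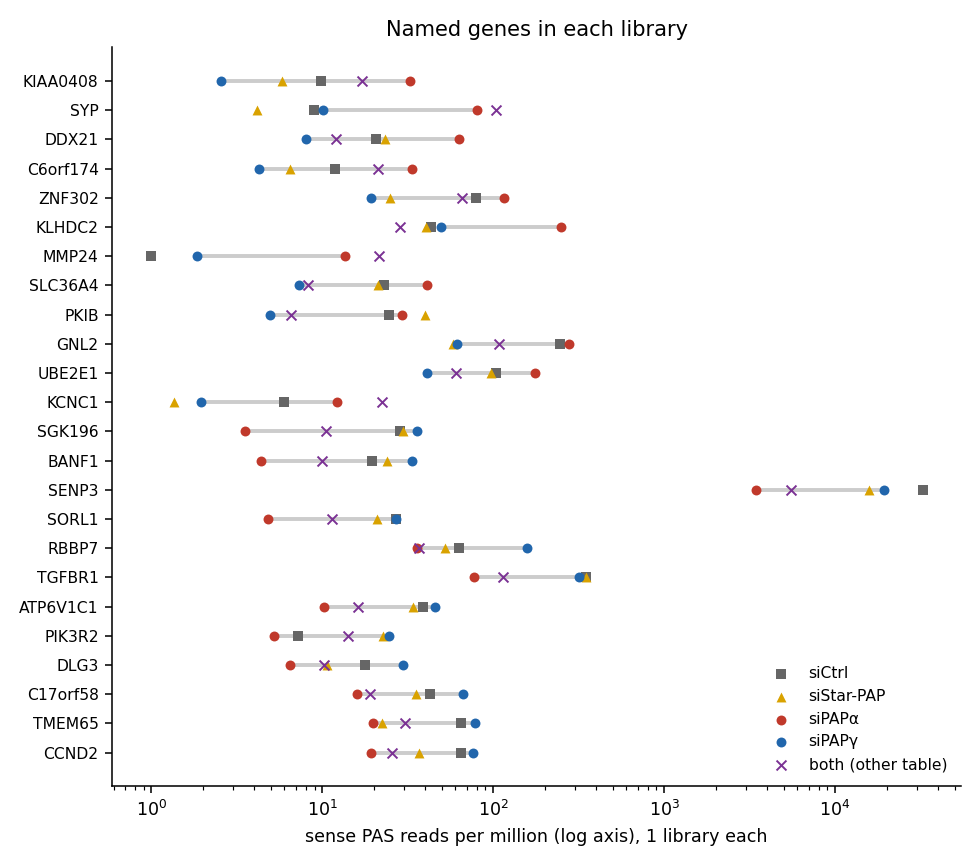
RPM (log axis) of the genes with the counting interval farthest from equal levels, the 12 higher in siPAPα above and the 12 higher in siPAPγ below, in siCtrl, siStar-PAP, siPAPα, siPAPγ and, from another table, the double KD, 1 library each, with a value of 0 (MMP24 in siStar-PAP) not drawn. For SYP, MMP24 and KCNC1 the double KD lies above siPAPα, and for the genes higher in siPAPγ it lies between siPAPα and siPAPγ.

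The other genes of this group had siPAPα lowest of all 5 libraries. BANF1, which bridges DNA to the nuclear lamina, had 4.39 RPM in siPAPα, 33.7 in siPAPγ, 19.6 in siCtrl, 24 in siStar-PAP and 9.92 in the double KD, and siPAPγ was 7.68-fold (5.90 to 10.1) above siPAPα. SGK196, a kinase of protein O-mannose glycans, had 3.52 RPM in siPAPα, 35.9 in siPAPγ, 28.3 in siCtrl, 29.8 in siStar-PAP and 10.5 in the double KD, a fold of 10.2 (7.66 to 13.8). GENCODE has no gene on the strand at its most-read PAS. TGFBR1, a receptor kinase of TGF-β, had 77.5 RPM in siPAPα, 319 in siPAPγ, 351 in siCtrl, 347 in siStar-PAP and 113 in the double KD. The libraries with PAPα depleted stood apart from the 3 others, which lay close to each other. SORL1, a sorting receptor, had 4.82, 27.0, 27.1, 21.0 and 11.4 RPM in the same order of libraries, and ATP6V1C1, a subunit of the vacuolar proton pump, 10.3, 45.4, 39.0, 33.7 and 16.2. RBBP7, a histone-binding chaperone, had 35.8 RPM in siPAPα, 159 in siPAPγ, 62.9 in siCtrl, 52.4 in siStar-PAP and 36.6 in the double KD, so that the siPAPγ library was the high one. CCND2, a cyclin of the G1 phase, had 19.3 RPM in siPAPα, 76.5 in siPAPγ, 65 in siCtrl and 36.9 in siStar-PAP. DLG3, a synaptic scaffold protein, C17orf58 and TMEM65, a mitochondrial membrane protein, were 4.57-fold, 4.14-fold and 3.97-fold higher in siPAPγ. PIK3R2, a regulatory subunit of phosphoinositide kinase, was 4.76-fold higher there, at a single PAS that GENCODE assigns to an intron of another gene.

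Of 23 gene lists, those of histones and p53 targets had the lowest medians of the log2 ratio of siPAPα to siPAPγ, and those of splicing factors, small nucleolar RNA (snoRNA) hosts, poly(A) polymerases with uridylyltransferases and ribosomal proteins the highest. The lists were not tested, and their counts stand beside 5.18% of all genes over 2-fold higher in siPAPα and 7.23% over 2-fold higher in siPAPγ. The lists overlap in part, and were chosen with earlier results of these data known. Replication-dependent histone mRNAs normally end in a stem-loop without a poly(A) tail, so that reads come from their polyadenylated forms. Of 65 listed genes 8 passed the filter on reads, 5 of them over 2-fold higher in siPAPγ and 0 in siPAPα, with a median log2 ratio of −1.25 beside −0.08 for all genes. Some of the called histones, such as HIST1H3H, had few reads, and with more than 200 reads required the median was −0.58. HIST1H1C, a linker histone, had 6.98 RPM in siPAPα, 19.8 in siPAPγ and 74.7 in siCtrl, and HIST1H3H 3.21, 10.1 and 10.7. HIST1H2BK, the most read, had 264 RPM in siPAPα and 443 in siPAPγ and was within 2-fold. Of 17 p53 targets, 5 were over 2-fold higher in siPAPγ and 0 in siPAPα, with a median of −0.46. CDKN1A, the cell cycle inhibitor p21, had 71.5 RPM in siPAPα, 165 in siPAPγ, 98.5 in siCtrl and 117 in siStar-PAP, a log2 ratio of −1.20 (−1.32 to −1.09). TP53INP1 had a log2 ratio of −1.70 (−2.04 to −1.38), CCNG1 one of −1.63, BTG2 one of −1.19 and PLK2 one of −1.09. RRM2B, a ribonucleotide reductase subunit, lay on the other side at 0.66 (−0.16 to 1.54).

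SR proteins and hnRNPs, which bind pre-mRNA and guide splicing, had a median log2 ratio of 0.32, and 28 of 33 were above the median of all genes, with 2 over 2-fold higher in siPAPα and 0 in siPAPγ, a share near that of all genes. SRSF2 had 714 RPM in siPAPα, 209 in siPAPγ, 355 in siCtrl and 346 in siStar-PAP, a log2 ratio of 1.77 (1.70 to 1.84). HNRNPA3 had 65.8 RPM in siPAPα and 25 in siPAPγ, and HNRNPA1, the most read, 2470 and 1266. SRSF9 lay on the other side, with 174 RPM in siPAPα and 264 in siPAPγ. Of 10 snoRNA host genes, 9 were above the median of all genes, and the list's median was 0.32. GAS5 was past 2-fold, with 76.2 RPM in siPAPα, 37.2 in siPAPγ, 32.5 in siCtrl and 21.5 in siStar-PAP. Of 74 cytosolic ribosomal protein genes, 57 were above the median of all genes, 3 were over 2-fold higher in siPAPα and 1 over 2-fold higher in siPAPγ, with a list median of 0.23. This share of calls was no higher than that of all genes. RPL3 had 85.0 RPM in siPAPα and 41.4 in siPAPγ, RPL7 11.2 and 4.96, and RPL27, the one past 2-fold the other way, 1.67 and 5.53. The genes of ribosomal proteins have many near-identical processed copies, so their counts of uniquely mapped reads are uncertain. The 100 bases before the most-read PAS held a median of 43.5% G and C in the histones, 29% in the p53 targets, 33% in SR proteins and hnRNPs, 33% in snoRNA hosts and 39% in ribosomal proteins, beside 35% over all genes. The part of base composition in these medians was not tested.

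**Figure D5:**
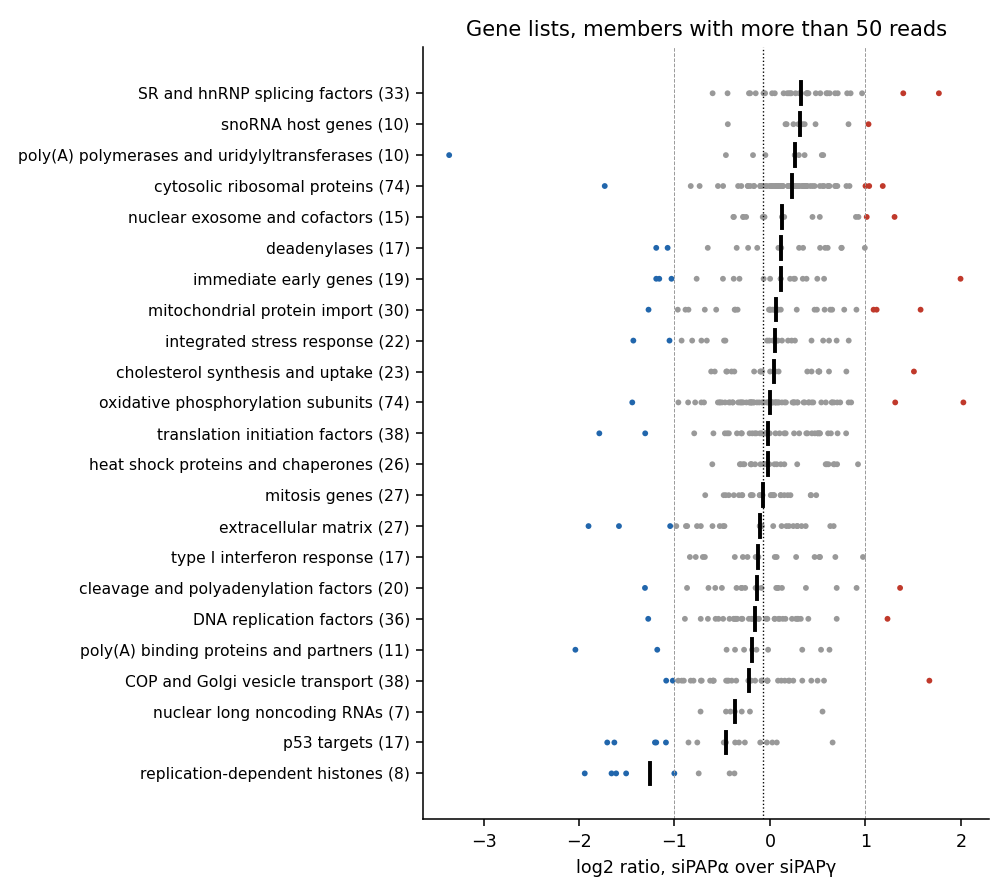
Log2 ratio of siPAPα to siPAPγ of the members of 23 gene lists with more than 50 reads in the 2 libraries together, 1 point per gene (red over 2-fold higher in siPAPα, blue over 2-fold higher in siPAPγ), with list medians as black bars, the number of genes in parentheses, the median of all genes (−0.08) dotted and 2-fold dashed. Histones (−1.25) and p53 targets (−0.46) have the lowest medians and SR proteins and hnRNPs (0.32) the highest.

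Among lists of the polyadenylation machinery and of tail metabolism, each had 1 or 2 members past 2-fold, beside 12.4% of all genes. Of 20 cleavage and polyadenylation factors, PPP1CB, a phosphatase subunit of the complex, was higher in siPAPα (8.89 against 3.46 RPM) and SYMPK, the scaffold symplekin, higher in siPAPγ (8.88 against 3.58 RPM), and the list's median was −0.14. CSTF2, the subunit that binds the downstream element, had 19.0 RPM in siPAPα and 10.1 in siPAPγ, and NUDT21, which binds UGUA, 17.0 and 31.1, both within 2-fold. Of 10 poly(A) polymerase and uridylyltransferase genes, only PAPOLA was past 2-fold among these, and the list's median was 0.26, which turned to −0.05 with more than 200 reads required. Of 11 genes of poly(A) binding proteins and partners, PAIP2B (1.23 against 5.07 RPM) and PABPN1, the nuclear poly(A) binding protein (1.73 against 3.92 RPM), were higher in siPAPγ. Of 17 genes of deadenylases and their partners, the partners BTG2 and RQCD1 were higher in siPAPγ. BTG1, also a partner, was within 2-fold at 126 RPM in siPAPα and 63.4 in siPAPγ. Of 15 genes of the nuclear exosome and its cofactors, EXOSC8 (20.5 against 8.30 RPM) and EXOSC9 (13.0 against 6.46 RPM) were higher in siPAPα and 0 in siPAPγ.

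Medians of most housekeeping and stress lists lay near that of all genes, and that of immediate early genes lay farthest above it. Medians were −0.0015 for 74 oxidative phosphorylation subunits, −0.15 for 36 DNA replication factors, −0.08 for 27 mitosis genes, −0.02 for 38 translation initiation factors and 0.06 for 30 genes of mitochondrial protein import. Scaled by the study's PASS totals, which moved the median of all genes to 0.06, those of oxidative phosphorylation, mitosis and translation initiation turned to 0.14, 0.06 and 0.12. Under the column totals medians were 0.05 for 22 genes of the integrated stress response, 0.04 for 23 of cholesterol synthesis and uptake, −0.02 for 26 heat shock proteins and chaperones, 0.11 for 19 immediate early genes, −0.11 for 27 of the extracellular matrix and −0.12 for 17 of the type I interferon response. Of these, the negative medians also turned positive under that scaling, to between 0.02 and 0.12. Of the 19 immediate early genes, 1 was over 2-fold higher in siPAPα and 3 in siPAPγ, beside 12.4% of all genes past 2-fold. Their log2 ratios ran from −1.19 to 2.00. Single members stood out: NDUFA5 of complex I had 235 RPM in siPAPα and 57.6 in siPAPγ, EIF4A3 of the exon junction complex 16.4 and 56.5, and EIF3L 522 and 1290. TIMM17A of the mitochondrial translocase had 66.4 RPM in siPAPα and 22.2 in siPAPγ, TIMM50 of the same complex 906 and 2189, and HMGCS1 of cholesterol synthesis 12.8 and 4.50. Of 38 genes of COP and Golgi vesicle transport 24 were below the median of all genes, with a list median of −0.22, and ARCN1 and SEC24C were over 2-fold higher in siPAPγ and SEC24B in siPAPα. Of 7 nuclear long noncoding RNAs 6 were below that median and 0 were past 2-fold, and the list's median was −0.37. NEAT1, the scaffold RNA of paraspeckles, had 25 RPM in siPAPα, 32.3 in siPAPγ, 41 in siCtrl and 10.3 in siStar-PAP.

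Genes that the study followed in detail after Star-PAP KD differed little between siPAPα and siPAPγ. CHAF1A, a subunit of chromatin assembly factor, had 61.9 RPM in siPAPα and 67.3 in siPAPγ, a log2 ratio of −0.12 (−0.27 to 0.03). CYTH2, an exchange factor of ARF GTPases, had 11.6 and 14.3 RPM, with a log2 ratio of −0.30 (−0.63 to 0.04). For both the interval includes equal levels. GCLC, the catalytic subunit of glutathione synthesis, had 25.6 and 35.4 RPM, GPBP1 431 and 360, and GAPDH, a glycolytic enzyme with a single listed PAS, 4075 and 3683.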

How the data were processed

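HEK293 3′READS libraries were used as deposited. The authors mapped reads with bowtie2 (local mode) to hg19, kept those with a mapping quality over 10 and at least 2 untemplated Ts, clustered sites within 24 nt, and deposited counts of reads per PAS of a RefSeq gene, not normalized. siPAPα and siPAPγ counts were scaled by column totals over sense PASs, each PAS counted once, and summed per gene. Genes and PASs needed more than 50 reads in both libraries together. Ratios have exact (Clopper-Pearson) 95% intervals. Reads carry no molecular identifiers, so intervals cover counting error only. The batch 2 table, made with 3′READS+, was not used. GRCh37 sequence and GENCODE v44lift37 were used for sites; the listed position was read as 1-based.

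Genes were named by rule: those followed in the study, the 12 per direction (at least 200 reads) with the interval farthest from 1, the 8 largest share gains (at least 200 reads in each library), the 5 largest RED (at least 100 reads) and the 3 largest UR-APA differences (at least 200 reads) per direction, and up to 4 members of each list, the most read and those with the largest ratios. Further list members (such as PLK2 and RRM2B) and INA were chosen after their values were seen. One gene of the rule is not reported here. Members and lists were chosen with earlier results of these data known. Scripts were tested on simulated data. Alternatives covered scaling (TMM of edgeR 4.0.16, DESeq2 1.42.0 size factors, other totals), filters, thresholds, thinning, merging of PASs and Fisher's exact test. Python 3.11.15, scipy 1.17.1 and R 4.3.3 were used.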

Additional observations from a re-analysis of the deposited data

How the results depend on the processing

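With 1 library per condition, no value here has a replicate check, and weakly read genes and sites carry most of the counting error. No paired analysis was possible because each condition had 1 library and the labels carry no replicate numbers. The direction with more calls depended on scaling. Of genes past 2-fold 41.8% were higher in siPAPα, against 57.5% scaled by the study's PASS totals, 51.1% by TMM and 50.9% by DESeq2. The median log2 ratio, −0.08, became 0.063, 0.0032 and 0 under these, −0.10 without the SENP3 PAS in the totals (an alternative chosen after seeing the data) and −0.053 with more than 200 reads. Of PASs past 2-fold 47.0% were higher in siPAPα, against 59.8%, 53.8% and 53.5% in the same order. At a fold of 4, 137 genes (54.7% higher in siPAPα) and 401 PASs (58.1%) were past it. The count of genes, 1322, was 4001 with at least 1 read, 548 with more than 200 reads, 3500 at a fold of 1.5 and 442 with the interval past 2-fold as well. That of PASs, 2731, was 849 with more than 200 reads. Share changes, 4396, numbered 1075 at 20 points, 10463 at 5 points (49.3% higher in siPAPα) and 1038 with at least 200 reads. RED calls, 2573, numbered 945 with at least 100 reads, 1553 with Fisher's exact test and 1175 in pairs within 5 GC points (chosen after seeing the data). UR-APA calls, 1229, numbered 633 at 10 points, 229 with at least 200 reads and 774 with Fisher's exact test. Under each alternative tried RED stayed mostly toward distal in siPAPα and UR-APA mostly toward siPAPγ. Upstream-region read shares were 3.64% and 4.02% with antisense sites in the total. Members of lists past 2-fold, 50, numbered 29 with more than 200 reads. AATAAA then stood in 66.5% of PASs higher in siPAPα and 55.8% of those higher in siPAPγ. The higher filters tested fewer genes and sites, and the cause of the other differences was not tested. Of 34 named genes, CHAF1A, whose interval includes equal levels, changed sign (0.02 scaled by the study's PASS totals), and all 16 named share changes kept their sign with PASs within 50 nt merged.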

Other observations

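Upstream antisense sites, which mark RNAs that leave a promoter against the direction of its gene, were left out of the report's totals. They held 0.333% of all listed reads in siPAPα, 0.383% in siPAPγ, 0.514% in siCtrl and 0.378% in siStar-PAP. Of 240 antisense PASs with more than 50 reads in siPAPα and siPAPγ together, 38 (15.8%) were over 2-fold higher in siPAPγ and 25 (10.4%) in siPAPα, and the median log2 ratio of siPAPα to siPAPγ was −0.16 (−0.29 to −0.03). The sites named here were chosen after their values were seen. The antisense site of AIFM1 had 745 reads in siPAPα, 139 in siPAPγ, 320 in siCtrl and 106 in siStar-PAP. That of FSIP1 had 270, 47, 166 and 77 reads. On the other side, the antisense site of SCRN1 had 27 reads in siPAPα, 105 in siPAPγ, 65 in siCtrl and 42 in siStar-PAP, and that of TUBGCP6 had 127, 203, 728 and 230. These are reads as counted, and siPAPα was the deepest of the 4 libraries. Per library read, siPAPα was the highest of the 4 for AIFM1, siCtrl for FSIP1 and TUBGCP6, and siPAPγ for SCRN1.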
